A study of Neurospora crassa with 24 samples.

Results

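The step from 240 to 360 min of growth on maple sap medium (MSM) is the last of the sampled course of conidial germination in the filamentous fungus Neurospora crassa. MSM is maple sap set with agar, a natural source whose carbon is mainly sucrose and which holds little nitrogen, and the medium it is set against, Bird medium (BM), is a synthetic one rich in glucose and ammonium. The members of the step were all genes with an estimated level at both 360 and 240 min on MSM. The size and direction of a change between these levels were not used. Genes listed at 0 at 240 min but above 0 at 360 min, 147 in number, were left out, as were 147 of the reverse kind. They numbered 8975 of the 9730 genes listed. The other 755 were listed at 0 at one of these times or both, which stands for no estimate, and 312 of the listed genes stood at 0 at all 4 times.

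RNA came from 3 libraries of conidia at 360 min and 3 at 240 min on MSM, 2 of the 8 groups among 24 libraries, and BM was sampled at the same 4 times of 15, 120, 240 and 360 min. All groups were a single mat A strain, FGSC2489, grown as conidia on cellophane over the medium under constant light. No group carried a mutation or a drug. The times were set by the look of most spores on BM, which had a first branch at 360 min and a doubled long axis at 240 min, and a time on MSM is therefore a sampling time rather than a shared stage of growth. The 3 replicates were collected at separate times, but the deposited tables give 1 pooled level per gene, time and medium with its 95% bounds, and no values per library, so no spread between replicates could be shown.

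A dormant conidium holds stored RNA, ribosomes, trehalose and proteins. As it germinates it restarts translation and respiration, swells, marks a site of polar growth, and extends a germ tube that may fuse with its neighbours. Genes for ribosomes and precursor synthesis are known to be expressed strongly in growing fungal cells. Genes of nitrogen scavenging, cell fusion, conidiation and mating are known to answer to starvation and light. In bulk RNA, fewer cells of a kind and less RNA per cell cannot be told apart.

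Each level is a ratio to the gene's lowest time on the same medium, which is set to 1, so levels of different genes or of the 2 media cannot be compared with each other. A change is the log2 ratio of the level at 360 min to that at 240 min, less the median of all tested genes, which was 0.15 on MSM as deposited and -0.30 on BM. Its standard error (SE) came from the widths of the bounds. Calls required an adjusted p under 0.01 (Bonferroni over all genes tested) in a two-sided z test. The SE of a change on MSM had a median of 0.0266 on the log2 scale, and 69.6% of genes had one under 0.05. Numbers of reads were not given in the tables, so the depth behind a level could not be given and the bounds stand in for it.

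The step changed a large part of the transcriptome by small amounts and a small part by large ones. At 360 min 3060 genes were higher (34.1% of those tested) and 3025 were lower (33.7%) than at 240 min, while 2890 were not called. As deposited, with no median taken off, the same test gave 3947 higher and 2296 lower genes, which moves the higher share of all calls to 63.2%, against 50.3% for centred changes. The median size of a centred change was 0.40 on the log2 scale, against 0.26 for the same step on BM. A change of at least 2-fold was called for 506 higher genes (5.64%) and 711 lower genes (7.92%), and a log2 change of at least 2 for 80 higher and 138 lower genes. The narrow bounds let changes as small as 0.03 pass the test, so sizes are given throughout.

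Most genes with a 2-fold change reached an end of their range at 360 min. Of the 506 higher genes, 481 had their highest level of all 4 times at 360 min, and 312 had their lowest level at 15 min, 101 at 120 min and 93 at 240 min. A gene chosen as higher at 360 than at 240 min cannot peak at 240 min or be lowest at 360 min, and for lower genes the reverse holds. The choice thus favours an extreme at 360 min, and only the share between the other times is informative. The other 25 higher genes had peaked at 15 min, fallen and come back in part, as did mig-4 with levels of 15.4, 1, 1.15 and 3.44 at 15, 120, 240 and 360 min. Of the 711 lower genes, 693 had their lowest level at 360 min, and 517 had their highest at 15 min, 173 at 120 min and 21 at 240 min. Of all tested genes 42.6% were highest and 29.0% lowest at 360 min, and 36.2% were highest and 39.5% lowest at 15 min. In the step before, from 120 to 240 min, 640 of the 711 were already called lower and 22 higher. Of all 8907 genes tested in both steps, 2882 were called lower and 3097 higher in that earlier one. The earlier step shares the 240 min level with the one described.

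**Figure D1:**
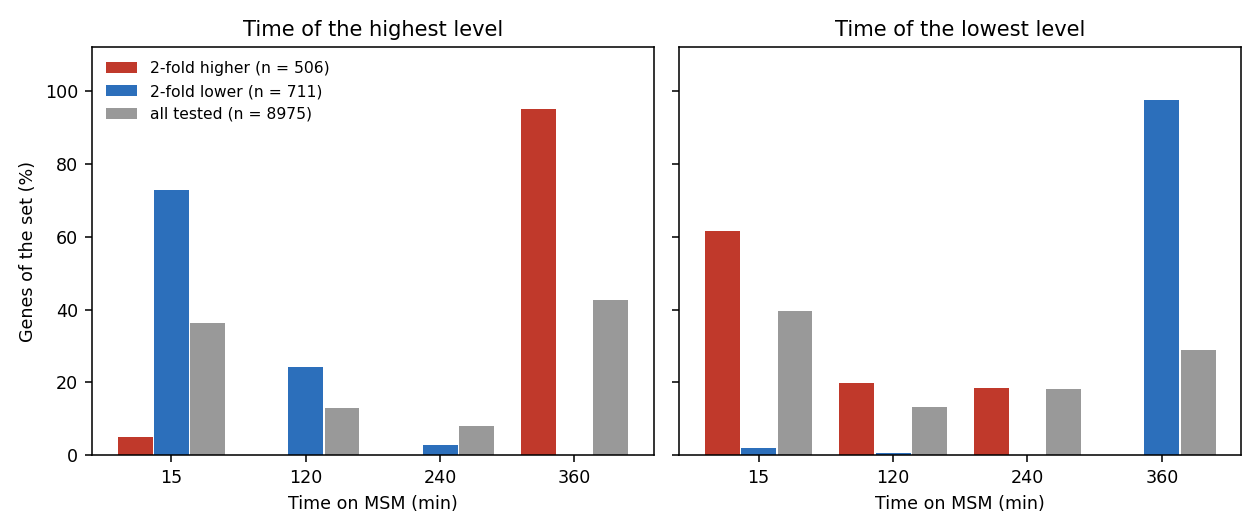
Share of genes (percent) whose highest level (left panel) or lowest level (right panel) on MSM fell at each of the 4 times, for genes called at least 2-fold higher from 240 to 360 min, genes called at least 2-fold lower, and all tested genes. Of the lower genes 72.7% were highest at 15 min, and of the higher genes 95.1% were highest at 360 min, against 36.2% and 42.6% of all tested genes. The choice of both sets by this step favours an extreme at 360 min. Higher genes cannot peak at 240 min, and lower genes cannot be lowest then.

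The largest change of a gene with a symbol was that of fdh, formate dehydrogenase, an enzyme that oxidizes formate to carbon dioxide. Its levels were 100.6 at 360 min (95% bounds 100.3 and 100.9) and 3.98 at 240 min (3.84 and 4.10), after 14.6 at 15 min and 1 at 120 min. The centred change was 4.51 (SE 0.02), a 22.8-fold rise. On BM the gene stood at 51.1 at 15 min and stayed between 1 and 1.12 from 120 min on, and its change of 0.16 in this step was not called. The trace on MSM thus fell and came back higher than at the start, and the trace on BM fell and stayed low.

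The gene cyn-1, cyanate lyase, which breaks cyanate down to ammonia and carbon dioxide, came next by the bound of the change nearest 0. Its level was 12.4 at 360 min (12.38 and 12.45) and 1 at 240 min (0.98 and 1.02), an 11.2-fold rise and a centred change of 3.48 (SE 0.01). At 15 and 120 min it had been 2.31 and 1.24, so it had declined until 240 min. Then followed acw-6, a predicted anchored cell wall protein, at 13.4 at 360 min and 1.82 at 240 min, 6.64-fold higher.

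G protein-coupled receptor genes followed. The level of gpr-3 was 17.1 at 360 min (16.9 and 17.2) and 2.66 at 240 min (2.54 and 2.80), and that of gpr-2 was 5.19 at 360 min and 1.00 at 240 min, 5.78-fold and 4.68-fold higher. They belong to a family whose other tested members, gpr-1, gpr-4 and gpr-5, had changes of -0.77, -0.33 and -0.22 that were not called, and gpr-6, named here after its values were seen, rose by 0.26.

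Genes of mating pheromones moved up in this mat A strain. The gene mfa-1, precursor of the pheromone of the opposite mating type mat a, had levels of 5.61 at 360 min and 1.21 at 240 min, 4.16-fold higher. The gene ccg-4, precursor of the mat A pheromone, had levels of 8.28 at 360 min and 2.55 at 240 min, 2.93-fold higher. The mating type regulator matA-1, named here after its values were seen, went the other way with a change of -1.47 (SE 0.03), and matA-2 and matA-3 had changes of -1.80 and -2.03 with wide SEs that left both uncalled. The pheromone receptor genes pre-1 and pre-2, also named after their values were seen, had changes of 0.10 and -0.28 that were not called, though pre-1 was called higher as deposited, at 0.25.

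Other symbols among the highest included genes of wall-degrading and wall-remodelling enzymes. The chitinase gene chit-1 had levels of 1, 6.07, 16.8 and 56.5 over the 4 times, and gh18-7 of the same enzyme family had 10.3 at 360 min and 2.61 at 240 min. The polygalacturonase family gene gh28-1 was at 4.50 at 360 min and 1.00 at 240 min, and the cellulase family gene gh6-3 at 5.64 at 360 min and 1.54 at 240 min. Of 28 tested genes for hydrolases of plant walls 10 were higher and 5 lower, with a median change of 0.24, a count near the 34.1% of all tested genes that were higher, and 3 were higher with the SE multiplied by 3.

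Genes known to answer to the clock, sugar and light were also in this group. The gene ccg-1, a clock-controlled gene repressed by glucose, was at 4.06 at 360 min (4.05 and 4.08) and 1.00 at 240 min, 3.66-fold higher, and bli-3, a blue light-induced gene, at 3.67 at 360 min and 1.00 at 240 min. Both had been falling until 240 min, as had con-10. Among genes known by an identifier and an annotation, NCU01233, of the aldo/keto reductase family, rose by 2.95 and NCU00606, a reductase, by 3.56, and NCU02126, an isovaleryl-CoA dehydrogenase, by 1.58.

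Of the 12 genes that were highest by the bound of their change nearest 0, those with neither a symbol nor an annotation ran between 2.91 and 4.64 on the log2 scale. NCU00265 headed them with a level of 93.1 at 360 min and 3.38 at 240 min. NCU09562 had 91.9 at 360 min and 4.93 at 240 min.

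**Figure D2:**
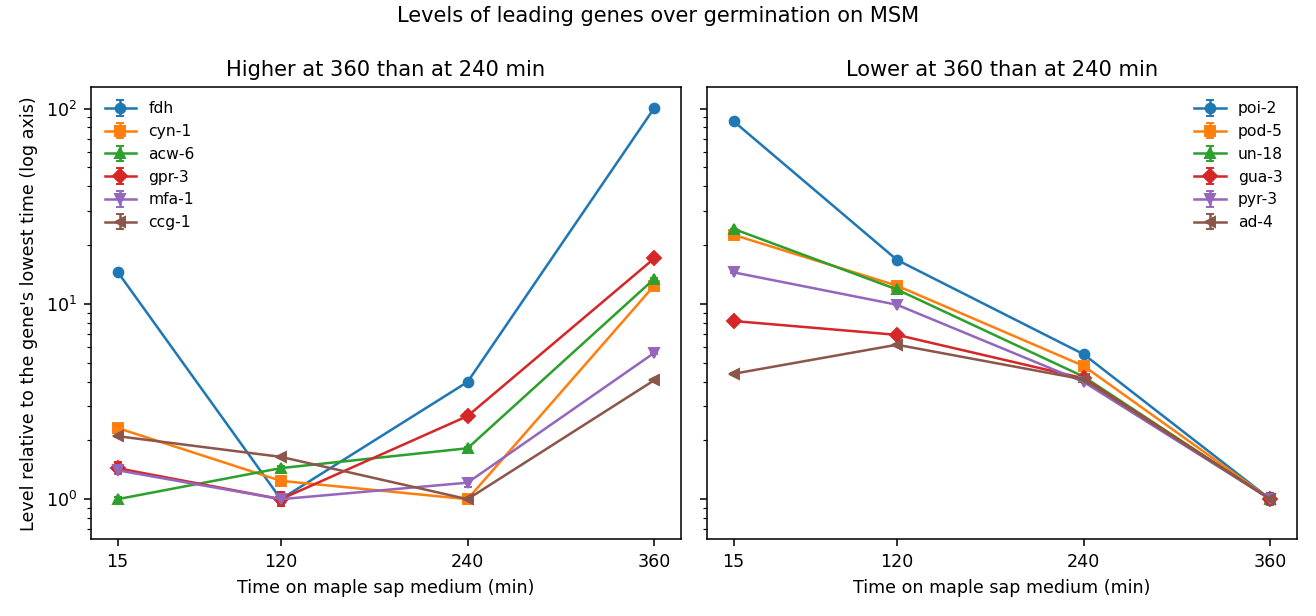
Levels on MSM (log axis, relative to the gene's lowest time) at 15, 120, 240 and 360 min for 6 genes that were higher at 360 than at 240 min (left panel) and 6 that were lower (right panel), with 95% bounds, most narrower than the symbols. In the left panel fdh falls to 1 at 120 min and reaches 100.6 at 360 min, and in the right panel poi-2 stands at 86.1 at 15 min and declines at each later time.

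Most genes that were lower by at least 2-fold had been declining before the step. By the bound nearest 0, the genes with a symbol that fell most were poi-2 and app, which are known as genes of the sexual phase. The level of poi-2 was 1 at 360 min (0.94 and 1.07) and 5.52 at 240 min (5.38 and 5.68), and its levels at 15 and 120 min had been 86.1 and 16.8. That of app was 1 at 360 min and 5.46 at 240 min, after 57.3 and 16.7. Their changes were -2.62 and -2.60, and BM gave -1.48 and -2.40.

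The following genes moved on MSM and far less on BM. The symbols pod-5, un-18 and gua-3 had levels of 1 at 360 min and of 4.81, 4.24 and 4.16 at 240 min, changes of -2.42, -2.23 and -2.21. On BM their changes were -0.18, -0.26 and -0.15, and each difference between the media was called. The kinase gene stk-52, fkr-4, a prolyl isomerase of the FK506-binding family, and cyt-19, an RNA helicase of the mitochondrion that helps introns to splice, fell by 2.16, 2.16 and 2.15. The chaperone gene hsp70-2 fell by 1.89 (SE 0.003), with levels of 1 at 360 min and 3.34 at 240 min.

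Of the annotated genes among the lowest, NCU00963, a methylenetetrahydrofolate dehydrogenase of one-carbon metabolism, had levels of 1 at 360 min and 6.50 at 240 min, 7.21-fold lower. NCU04583, an acetyltransferase, was 6.74-fold lower. Genes with neither a symbol nor an annotation among the 12 lowest ran between -3.76 and -2.79. NCU02324 had the lowest called change, with levels of 1 at 360 min (0.75 and 1.31) and 12.2 at 240 min (11.3 and 13.2). NCU08413 had another form, with levels of 2.32, 39.7, 8.38 and 1 over the 4 times, a peak at 120 min that was gone at 360 min.

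Genes of ribosomes and translation were lower. All 11 tested genes of the list of cytosolic ribosomal proteins were lower at 360 min, each by more than 2-fold, with a median change of -1.36 and a range of -1.75 to -1.14. Over all tested genes the median was 0 and 33.7% were lower. The gene crp-4 had levels of 1 at 360 min (0.996 and 1.01) and 3.03 at 240 min (3.02 and 3.04), after 3.97 and 3.95 at 15 and 120 min. The gene crp-5 had 1 at 360 min and 2.06 at 240 min, and the fusion of ubiquitin and ribosomal protein ubi::crp-6 had 1 at 360 min and 1.99 at 240 min. Translation factors did alike, with 4 of 4 lower: tef-1, elongation factor 1 alpha, changed by -1.38, and cot-3, elongation factor 2, by -1.27.

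The KOG descriptions (clusters of orthologous groups) that the study attached to its genes were read for 1753 genes, as groupings made after values had been seen. Among them 17 of 17 cytosolic ribosomal proteins were lower (median -1.29), as were 6 of 6 mitochondrial ribosomal proteins (median -0.81) and 8 of 8 aminoacyl-tRNA synthetases (median -1.01). Of 10 tested genes described as acting in ribosome assembly or rRNA processing 9 were lower, 7 of them at least 2-fold. The lowest of these was NCU01502, described as a subunit of the 18S rRNA processing complex, at -2.73, followed by NCU01257, described as a nucleolar protein, at -2.44, and the exception was NCU00921, described as the rRNA processing protein Rrp5, which rose by 0.59. In the whole KOG class of translation and ribosome structure 64 of 72 genes were lower and 5 higher, with a median of -0.98, against 593 lower and 619 higher of the 1688 tested genes of the sheet.

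On BM these genes did otherwise. All 11 cytosolic ribosomal protein genes were higher than the median gene there, with a median of 0.17, but as deposited all 11 were lower, with a median of -0.13, and 31.1% of all genes tested on BM were higher centred. The difference between the media did not hang on that scale. The MSM change was below the BM change for 11 of 11 genes both centred and as deposited, while of all 8773 genes tested on both media 34.3% were below centred and 1370 genes as deposited.

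Genes for making nucleotides and polyamines fell too. Of 9 nucleotide synthesis genes 8 were lower and 6 at least 2-fold, with a median of -1.46. The gene ad-4, adenylosuccinate lyase of purine synthesis, had levels of 1 at 360 min (0.98 and 1.02) and 4.10 at 240 min (4.07 and 4.14), and ad-7, amidophosphoribosyltransferase, which opens that pathway, 1 at 360 min and 3.33 at 240 min. The gene pyr-3, which opens pyrimidine synthesis, had levels of 14.5, 9.90, 3.98 and 1 over the 4 times. The single gene that rose was un-24, the large subunit of ribonucleotide reductase, by 0.11 (SE 0.01). In polyamine synthesis spe-3, spermidine synthase, fell by 1.85, spe-2 by 0.99 and spe-1, ornithine decarboxylase, by 0.68.

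Amino acid synthesis was lower pathway by pathway, by unlike amounts. Of 10 genes of the aromatic pathway all were lower, 9 of them at least 2-fold, with a median of -1.76, and the 3 genes of the entry enzyme DAHP synthase, aro-6, aro-7 and aro-8, fell by 1.90, 2.05 and 1.87. Arginine synthesis had 12 of 12 lower with a median of -1.05, from -1.76 for arg-10 to -0.29 for arg-15. Histidine synthesis had 3 of 4 lower with his-7 not called, and lysine synthesis 4 of 4. Methionine, cysteine and threonine synthesis had 15 of 15 lower with a smaller median of -0.72. The aromatic list also fell on BM, with 10 of 10 lower (median -0.31), and so did arginine with 10 of 12 (-0.36). Histidine had 3 of 4 lower and lysine 2 of 4 there, each with 1 higher. As deposited they had 3 and 4 lower on BM and 0 higher. Methionine, cysteine and threonine had 3 lower and 10 higher on BM, or 9 and 5 as deposited. Over all genes 33.7% were lower on MSM and 27.1% on BM. The MSM change was below that on BM for 10 of 10 aromatic and 10 of 12 arginine genes, or 9 and 7 as deposited.

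The regulators of these pathways were lower as well. The cross-pathway control gene cpc-1, which encodes the activator of amino acid synthesis genes under starvation, fell by 1.00, and cpc-3, the kinase that senses uncharged tRNA, by 0.48. The gene cpc-2, a ribosome-associated scaffold, fell by 1.55 (SE 0.003). In branched-chain synthesis 6 of 7 genes were lower, and ilv-5 was the exception at 7.19 at 360 min (7.09 and 7.29) against 1.46 at 240 min (1.39 and 1.53). All 7 branched-chain genes were lower on BM, with a median of -0.28.

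**Figure D3:**
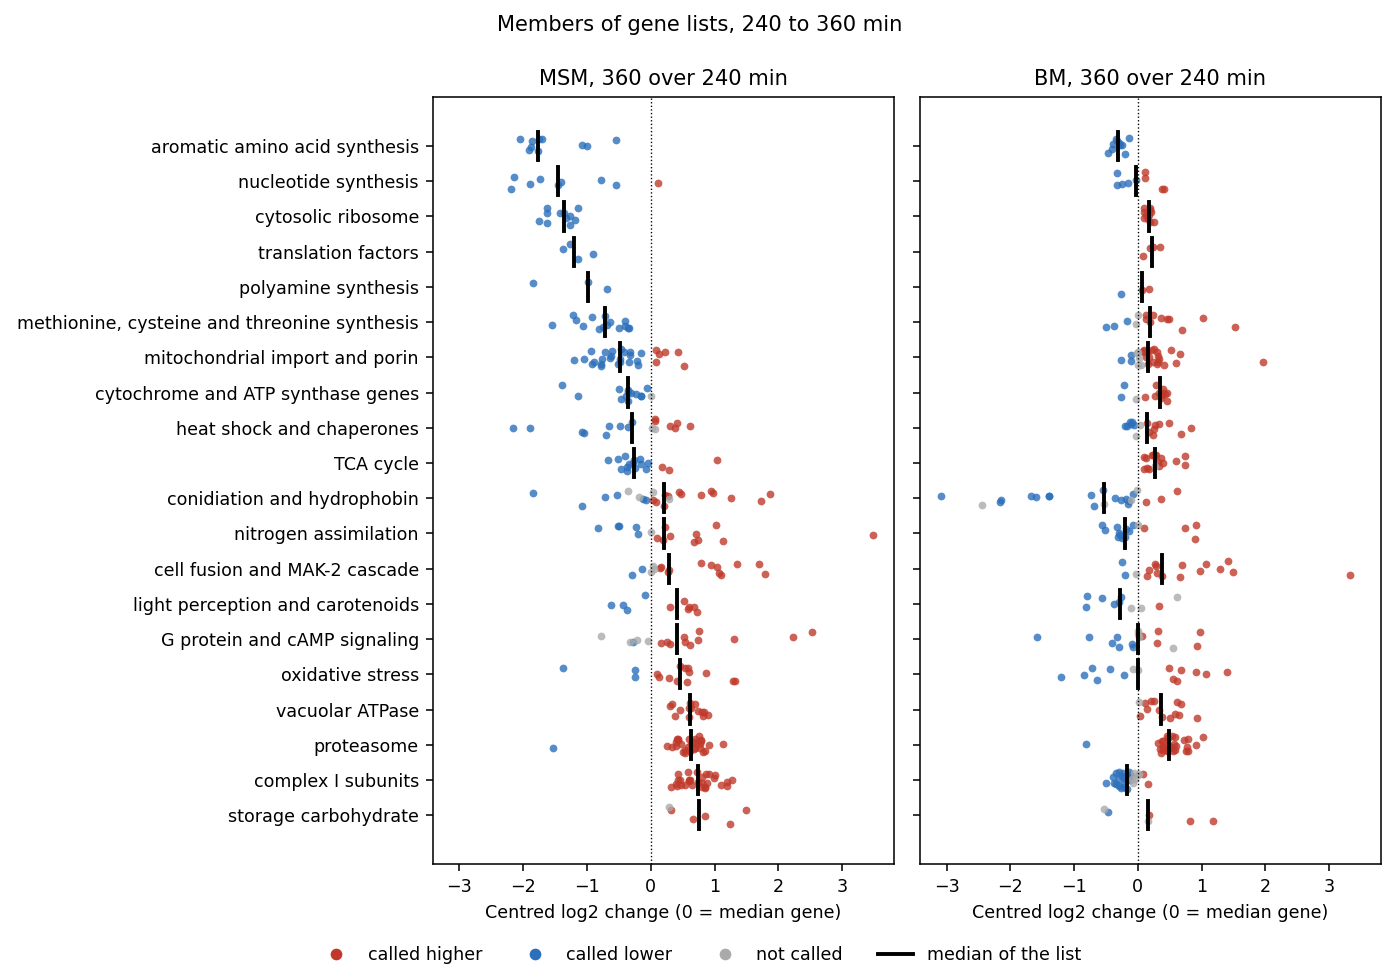
Centred log2 changes from 240 to 360 min of the members of 20 gene lists on MSM (left panel) and BM (right panel), with 1 point per gene colored by its call and a black bar at the median of each list. On MSM the lists run from a median of -1.76 for aromatic amino acid synthesis to 0.75 for storage carbohydrate, while on BM no list drawn has a median below -0.53 or above 0.49.

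Respiratory genes went apart within the chain. Complex I, the NADH dehydrogenase of the inner membrane that pumps protons, had 29 of 29 subunit genes higher, with a median of 0.74, from 0.32 for nuo6.6 to 1.27 for nuo12.3. The level of nuo12.3 was 3.89 at 360 min (3.86 and 3.91) and 1.45 at 240 min (1.43 and 1.47). Of 14 genes of the cytochrome complexes, cytochrome c and ATP synthase, none was higher and 13 were lower, with a median of -0.36. As deposited 2 of these 14 were higher and 11 lower, and cyc-1, cytochrome c, changed sides, with -0.06 centred and a positive change as deposited. Over all tested genes 34.1% were higher and 33.7% lower. The lowest centred change of complex I was 0.32, and the highest of the other group was -0.0021.

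The lowest of the second group were cya-5 and cyt-2, at -1.39 and -1.14, which act in making cytochrome oxidase and in attaching heme to cytochrome c. Subunit genes fell less, by 0.39 for fes-1, the Rieske protein, by 0.36 for both atp-1 and atp-2 of the F1 sector, these 3 named after their values were seen, and by 0.16 for oli, the proteolipid of ATP synthase. Among the enzymes that bypass the proton pumps, ndi-1, an internal NADH dehydrogenase, had levels of 1 at 360 min and 1.67 at 240 min, and nde-3 had 5.89 at 360 min and 2.97 at 240 min. The alternative oxidase gene aod-1 changed by -0.11 on MSM centred and by 0.04 as deposited, against a centred 1.58 on BM.

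BM gave the opposite split. Of the complex I genes 2 were higher and 21 lower, with a median of -0.18, and as deposited all 29 were lower. Of the cytochrome and ATP synthase genes 11 were higher and 2 lower, with a median of 0.35, and as deposited 8 were higher and 5 lower. The MSM change was above the BM change for 29 of 29 complex I genes on both scales, while of all 8773 genes 2330 (26.6%) were above centred and 4839 as deposited. It was below for 14 of 14 cytochrome and ATP synthase genes centred and for 11 of 14 as deposited.

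**Figure D4:**
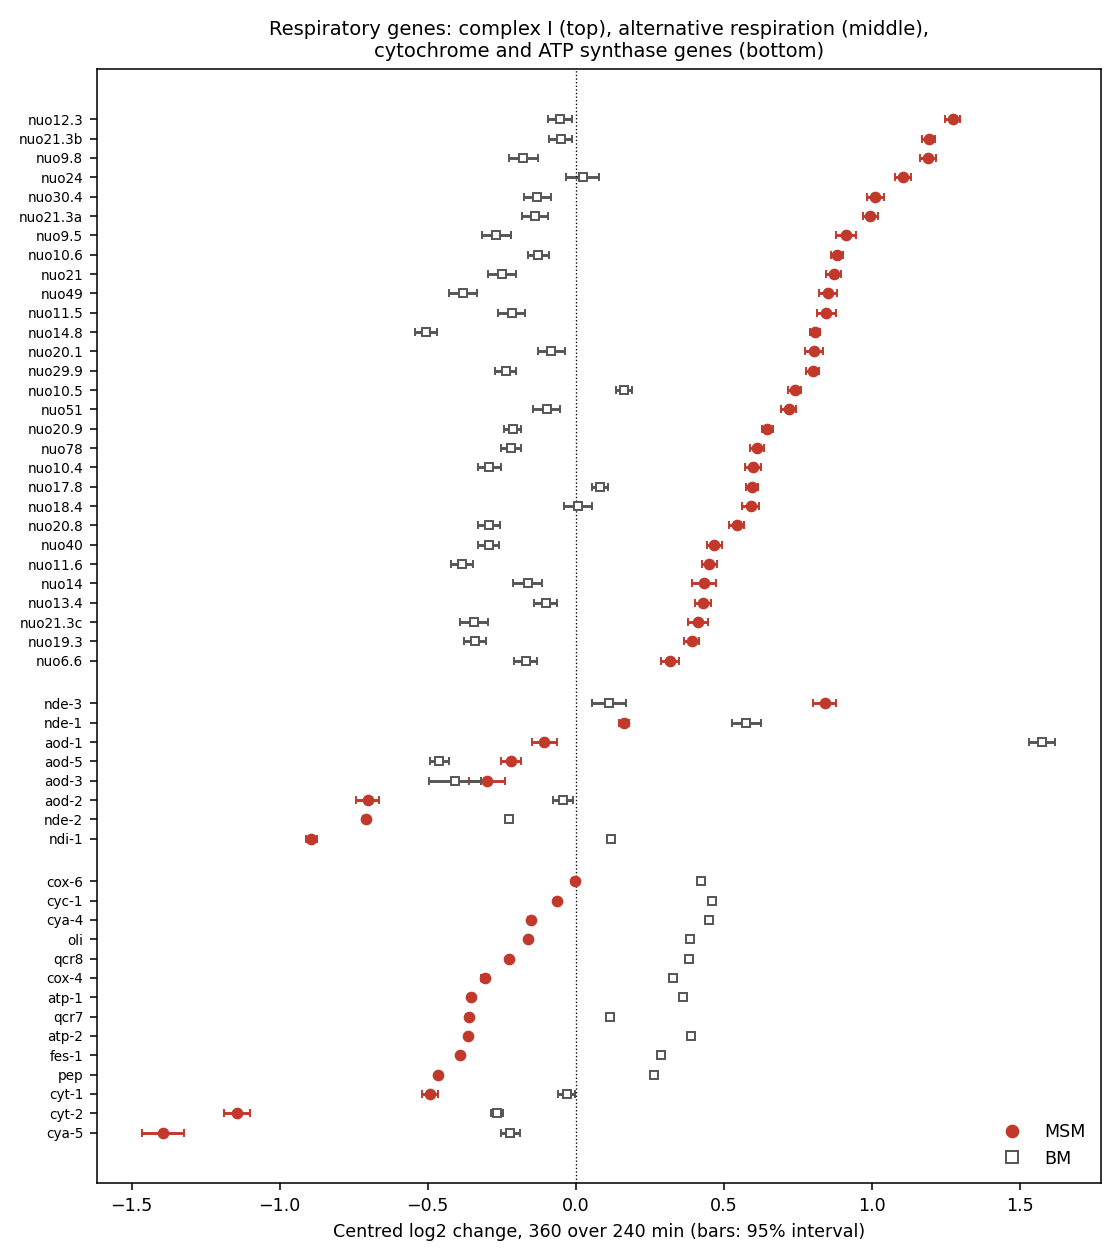
Centred log2 change from 240 to 360 min with its 95% interval for each respiratory gene, on MSM (filled circles) and BM (open squares), in 3 blocks from top to bottom of complex I, alternative respiration and cytochrome and ATP synthase genes. All MSM values of complex I lie above 0, from 0.32 to 1.27, and those of the bottom block lie at or below 0.

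Other mitochondrial genes stood with the second group. Of 17 genes of the tricarboxylic acid cycle 14 were lower and 3 higher, with a median of -0.26, and 16 of 17 were higher on BM with a median of 0.27. As deposited 10 were lower and 5 higher on MSM, whereas BM had 6 higher and 7 lower, so the direction on BM depends on the scale. Of 29 genes of protein import and the outer membrane 23 were lower with a median of -0.49. The gene tim54 fell to 1 at 360 min, against 2.07 at 240 min, hsp60 fell by 1.04 and tom22 by 0.93, whereas por, the porin of the outer membrane, named after its values were seen, rose by 0.09.

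Genes of protein degradation and of the vacuole rose. Of 30 genes of the list of the proteasome 29 were higher, with a median of 0.63, against 0.49 on BM, where 29 were higher centred and 26 as deposited. The gene rpn-3 of the regulatory particle had levels of 1, 4.52, 14.7 and 35.7 over the 4 times. The single lower gene was rpn-4, whose namesake in budding yeast is a transcription factor rather than a subunit, with levels of 17.6, 8.45, 2.62 and 1. Of 14 vacuolar ATPase genes, which acidify the vacuole, all were higher with a median of 0.62, from 0.29 for vph-1 to 0.90 for vma-4, and on BM 13 were higher and none lower centred, but 7 higher and 5 lower as deposited.

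Storage genes rose as well. Of 6 tested genes of glycogen and trehalose 5 were higher, against 34.1% of all tested genes. The gene gsy-1, glycogen synthase, had levels of 34.7 at 360 min and 11.1 at 240 min, against 1 at 15 min, and NCU05429, the branching enzyme, had 1, 6.17, 15.5 and 30.9. The trehalase gene tre-2 had 4.96 at 360 min and 1.90 at 240 min, and tre-1 rose by 0.66. The gene ccg-9, by which trehalose is made, had a change of 0.29 that was not called.

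Glycolysis was lower in the main, with 7 of 9 genes, against 33.7% of all tested genes. The fall was 0.76 for gpd-1, glyceraldehyde phosphate dehydrogenase, and 0.79 for emp-7. The exceptions were cfp, pyruvate decarboxylase, at 0.08, and emp-1, which had levels of 33.8 at 360 min and 14.1 at 240 min. In gluconeogenesis fbp-1, fructose bisphosphatase, rose to 6.61 at 360 min, against 2.76 at 240 min, while acu-3, isocitrate lyase of the glyoxylate cycle, fell to 1 at 360 min, against 2.17 at 240 min. Among sugar-use genes the glucoamylase genes gla-1 and gla-2 rose by 0.90 and 1.09, and inv, the invertase that splits sucrose, was at 1.27 at 360 min and 1.00 at 240 min, well under its levels of 5.06 and 4.81 at 15 and 120 min.

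The nitrogen genes named here parted by role. Of 16 genes 10 were higher (62.5%) and 5 lower (31.25%), against 34.1% and 33.7% of all tested genes. The lower share was thus near that of all genes. Those for taking up and reducing nitrate rose: nit-10, the nitrate transporter, was at 50.8 at 360 min (50.7 and 51.0) and 20.9 at 240 min, nit-3, nitrate reductase, at 31.6 at 360 min and 17.05 at 240 min, and nit-6, nitrite reductase, at 147 at 360 min and 81.2 at 240 min. NCU02361, a formamidase, reached 86.7 at 360 min, against 38.4 at 240 min. The enzymes that fix ammonium were lower, with gln-1, glutamine synthetase, changed by -0.83, and am, the NADP-dependent glutamate dehydrogenase, at 1.16 at 360 min and 1.50 at 240 min.

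The regulators nit-2 and nit-4, the second of them named after its values were seen, fell by 0.23 and 0.20, with nit-4 not called as deposited or with the SE multiplied by 3. On BM nit-10, nit-3 and nit-6 fell by 0.20, 0.30 and 0.14. Their MSM changes were above the BM changes by 1.33, 1.04 and 0.85.

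Genes of cell fusion and its signaling rose in the main. The MAK-2 kinase cascade and the ham genes are needed for germ tubes to find and fuse with each other. Of 17 genes 12 were higher and 2 lower, with a median of 0.29, against 34.1% and 33.7% of all tested genes. On BM 14 were higher and 2 lower, with a median of 0.37, or 9 and 5 as deposited. The MSM change was above that on BM for 5 genes and below for 8 centred, and for 14 and 1 as deposited. The gene ham-8 had levels of 4.29 at 360 min (4.25 and 4.34) and 1.19 at 240 min (1.16 and 1.22), and ham-7 rose by 1.35. The gene Prm1, which encodes a protein of plasma membrane merger, rose to 3.84 at 360 min, against 1.00 at 240 min, after 4.75 at 15 min, and it rose by 3.32 on BM, 1.53 more than on MSM. The kinases of the cascade, mak-2, mek-2 and nrc-1, named after their values were seen, changed by 0.29, 0.15 and 0.05, the last called as deposited but not centred.

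In G protein and cAMP signaling 11 of 16 genes were higher and 1 lower. Over all tested genes 34.1% were higher and 33.7% lower. The catalytic subunit gene pkac-1 of the cAMP-dependent kinase had levels of 42.0 at 360 min and 15.3 at 240 min, while its other form pkac-2 fell by 0.28. The gene gng-1 of the G protein gamma subunit rose by 0.75. Of 13 calcium genes 11 were higher, 6 of them also with the SE multiplied by 3, among them nca-3 of a calcium pump at 8.12 at 360 min (7.62 and 8.59) and 2.51 at 240 min (2.14 and 2.91), while nca-1 fell by 0.67.

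Conidiation genes parted by medium. Of 23 genes of conidiation and hydrophobins 13 were higher and 6 lower at 360 min of MSM, with a median of 0.21. On BM 3 were higher and 16 lower, with a median of -0.53, and as deposited 1 was higher and 19 were lower. The gene con-10, expressed in developing conidia, was at 2.64 at 360 min (2.63 and 2.66) and 1.00 at 240 min on MSM, after 2.12 and 1.80, and at 1.00 at 360 min and 5.43 at 240 min on BM. Not all of the list rose: ccg-13 fell by 1.85, ccg-8 by 1.08 and fl, a transcriptional activator of conidiation, by 0.71.

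Of 10 genes of light perception and carotenoids 6 were higher and 4 lower on MSM, with a median of 0.41. The carotenoid genes al-2, al-3 and ylo-1 rose by 0.73, 0.60 and 0.67, and the photoreceptor genes phy-1, phy-2 and cry fell by 0.44, 0.62 and 0.09, with cry higher and phy-2 not called as deposited. Light was constant on both media. The study marks some genes as induced early or late by light. Among those read 22 of 30 early and 21 of 27 late genes were higher on MSM, with medians of 0.36 and 0.71. Of the 1688 tested genes of the same sheet 619 (36.7%) were higher. The BM medians were -0.02 and 0.11, with 12 early genes higher and 12 lower, and 14 late genes higher and 6 lower. As deposited the BM counts were 3 higher and 21 lower for early genes, and 5 and 15 for late ones. Of the late ones 9 rose at least 2-fold, with the highest, NCU01861, described as a reductase and named after its values were seen, at 2.17, and BM gave -2.58 for it.

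In stress genes the catalases split. The gene cat-1 had levels of 4.67 at 360 min and 1.73 at 240 min, while cat-3 had 1.00 at 360 min and 2.34 at 240 min. The gene nox-1, an NADPH oxidase that is needed for fusion and sexual organs, rose to 5.63 at 360 min, against 2.04 at 240 min. Of 17 heat shock and chaperone genes 9 were lower and 6 higher (8 and 8 as deposited), and hsp70-5, hsp60 and hsp80 fell by 1.08, 1.04 and 0.70, the last named after its values were seen. Of 6 tested genes listed under vegetative incompatibility all were higher, and 2 with the SE multiplied by 3. That list counts hex-1, which encodes the protein of the Woronin body that plugs septal pores rather than an incompatibility factor. Its level was 11.4 at 360 min and 6.12 at 240 min.

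Genes of shape and division moved little. In the list of polarity and NDR kinases 16 of 24 were higher with a median of 0.16 and none reached 2-fold, and of 26 genes of actin, tubulin and motors 11 were higher and 8 lower with a median of 0.03, against 19 higher and 3 lower as deposited. Of 55 genes of histones and chromatin 20 were higher and 24 lower, at a median of -0.05. As deposited 30 of these 55 were higher and 11 lower, so that no direction can be given for the actin and histone lists. The polarity list had 4 lower genes centred, and 20 higher and 2 lower as deposited. Of 27 transcription factor genes named for colony growth 4 were higher and 17 lower, but 8 were higher and 10 lower as deposited and 7 lower with the SE multiplied by 3. The gene tah-4 of this list rose by 1.13.

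Other groups were mixed or shifted little. Of 45 genes of chitin and glucan synthesis and the wall 26 were higher and 10 lower, with a median of 0.14, and of 14 in the wall integrity and osmosensing cascades 11 were higher and 3 lower. Genes of sexual development were split, with 6 higher and 7 lower of 28, and so was the circadian oscillator, with 6 and 8 of 15. In phosphate uptake 6 of 7 genes were lower, with pho-5, a phosphate permease, at -1.18 on MSM and -1.08 on BM. Genes of lipids and peroxisomes had 6 higher and 15 lower of 27 centred but 12 and 12 as deposited, and those of DNA repair and replication 9 higher and 17 lower of 47 centred but 22 and 10 as deposited, so that no direction can be given for either.

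The step was also compared between the media. On BM 2764 of 8888 tested genes were higher (31.1%) and 2409 were lower (27.1%). The MSM change was above that on BM for 2330 of 8773 genes tested on both (26.6%) and below for 3012 (34.3%). As deposited it was above for 4839 and below for 1370, and with the SE multiplied by 3 above for 990 and below for 1731. Genes that rose on MSM and fell on BM, with a called difference, numbered 620 (7.07%), and those that fell on MSM and rose on BM 916 (10.4%). All these counts rest on the centring, and as deposited the opposite calls numbered 2059 and 141, since the median gene moved by 0.15 on MSM and by -0.30 on BM.

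With a symbol, cyn-1 led the first group with a difference of 3.76 (SE 0.05), followed by con-10 at 3.40, ccg-1 at 3.27, ilv-5 at 2.87 and mfa-1 at 2.56. For ccg-1 the MSM levels were 4.06 at 360 min and 1.00 at 240 min, and the BM levels 1.00 at 360 min and 3.23 at 240 min. In the second group tob55, which inserts barrel proteins into the outer mitochondrial membrane, led with -2.39. Its change on MSM was only -0.42, so most of this difference came from its rise on BM. Next were ad-4 at -2.29, which as deposited was lower on both media, and met-8, methionine synthase, at -2.26. For met-8 the MSM levels were 1.00 at 360 min and 1.51 at 240 min, and the BM levels 4.14 at 360 min and 1.77 at 240 min. The gene cys-11, ATP sulfurylase, had a difference of -2.09, the gene for, serine hydroxymethyltransferase, one of -2.12, and fox-2, an enzyme of fatty acid oxidation, one of -1.94. The MSM change of fox-2 was only -0.53.

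**Figure D5:**
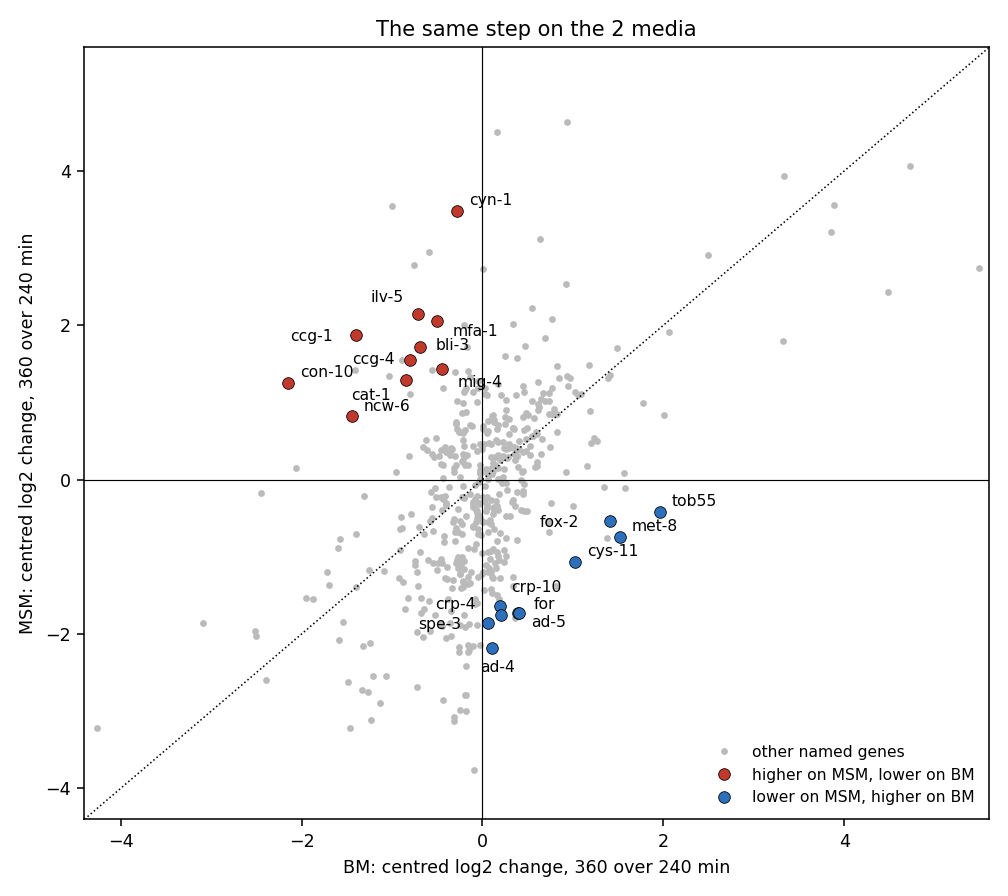
Centred log2 change from 240 to 360 min on MSM (vertical axis) against that on BM (horizontal axis) for the genes of the naming rule tested on both, with the dotted line at equal changes. The 10 red genes, led by cyn-1, rose on MSM and fell on BM, and the 10 blue genes, among them tob55, met-8 and ad-4, fell on MSM and rose on BM, though 4 of them, ad-4, spe-3, crp-4 and crp-10, were lower on both media as deposited.

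Large changes stood in places beside each other on the chromosomes. Runs were at least 3 neighbours in the gene order of the RefSeq assembly, all called and changed at least 2-fold in one direction. They numbered 10 for higher genes, with 33 of the 506 genes, and 12 for lower genes, with 40 of the 711. The longest was a run of 6 lower genes on chromosome VII with no symbols, whose levels were all 1 at 360 min and between 2.36 and 5.25 at 240 min. Their SEs were wide, from 0.17 to 0.23, and their BM changes were negative too, from -2.51 to -1.21. On chromosome III the ribosomal gene crp-2 lay between the other two genes of its run, and these 3 genes had levels of 1 at 360 min and of 2.41 to 2.53 at 240 min. On chromosome V nit-10 was in a run of 4 higher genes. Whether reads were counted by strand is not given in the sources used here, so the part of reads shared by overlapping neighbours was not tested.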

How the data were processed

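The deposited tables, 1 per medium, give ratio levels made by the authors: reads were aligned with TopHat2 2.0.12 and uniquely mapped reads were tallied with HTSeq 0.6.1p1, and the program LOX, run by the authors, pooled 3 replicates into 1 level per gene and time, relative to the gene's lowest time, with distances to 95% bounds. Libraries were made from poly(A) RNA by a stranded protocol. Read totals and values per library were not analysed here.

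Levels at 360 and 240 min on MSM were compared over 8975 genes with a z test (two-sided) on the centred log2 ratio, with Bonferroni adjustment. The SE is the root sum of squares of both bounds' log2 widths over those of a normal 95% interval, and the bounds may not hold all of the replicate spread. The change on MSM was compared with that on BM, which shares no library, by a z test of the difference over 8773 genes. Lists were matched to RefSeq symbols of assembly NC12 (1118 symbols, 1107 of them tested) and are described by counts and medians alone.

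The members and lists were chosen with earlier results of these data known. The lists were completed when the symbols became available, and the groupings by KOG description and by light response were added after values had been seen. Genes named are the 12 higher and 12 lower by the bound nearest 0, the 15 and 15 with a symbol, all members of lists of up to 8 tested genes and otherwise the 4 highest and 4 lowest, those the paper names, 10 and 10 with opposite changes on the media, and genes of runs of neighbours. Others are marked where named. Alternatives were no centring, another centre, Benjamini-Hochberg adjustment, a 3-fold SE, an SE from linear widths, and filters on the SE and the bounds. No column of per-sample values was left unused.

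The test was run on simulated data, where 44 of 50 changes of 2-fold and 0 unchanged genes were called. The simulated noise was drawn from the same SEs that the test used. It therefore cannot show whether the bounds hold the spread between replicates. Python 3.11.15 was used with numpy, pandas, SciPy and matplotlib. Sequences, isoforms and phenotypes were not analysed here.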

Additional observations from a re-analysis of the deposited data

Results flagged for a closer look

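The genes here are those whose change from 240 to 360 min differed between the media in a test of the difference itself, with opposite calls on each medium. Above BM on MSM, by the log2 change on MSM less that on BM, were cyn-1 (3.76), con-10 (3.40), ccg-1 (3.27), ilv-5 (2.87), mfa-1 (2.56), bli-3 (2.41), ccg-4 (2.35), ncw-6, a gene of a cell wall protein (2.27), cat-1 (2.13) and mig-4 (1.87). Below BM were tob55 (-2.39), ad-4 (-2.29), met-8 (-2.26), ad-5 of the last steps to inosine phosphate (-2.14), the gene for (-2.12), cys-11 (-2.09), crp-4 (-1.95), fox-2 (-1.94), spe-3 (-1.92) and the ribosomal gene crp-10 (-1.83). The centred MSM changes of tob55, met-8 and fox-2 were -0.42, -0.75 and -0.53, so most of their differences came from the rise on BM. As deposited all 10 of the first group kept their opposite calls, and 6 of the second did. The other 4, ad-4, spe-3, crp-4 and crp-10, were then lower on both, and the difference was called the same way for all 20 genes.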

How the results depend on the processing

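The counts of genes with a 2-fold change kept within 1.5 times of 506 higher and 711 lower under the 7 alternatives, at 404 to 698 higher and 557 to 814 lower. With the SE multiplied by 3 the step had 1838 higher and 1939 lower genes, the MSM change was above that on BM for 990 genes and below for 1731, and 148 and 409 genes were called in opposite directions. As deposited the MSM change was above that on BM for 4839 genes and below for 1370, and the opposite calls numbered 2059 and 141. With Benjamini-Hochberg adjustment 1051 genes rose on MSM and fell on BM. Lists in which most members were higher numbered 20 of 55, and 10 with the SE multiplied by 3. As deposited the change of aod-1 was 0.0433, of cry 0.0611, of cyc-1 0.0871 and of his-7 0.11, against negative centred changes. Of 147 genes named, 139 kept both direction and call as deposited and 138 with the SE multiplied by 3. No paired analysis was possible because the deposited columns pool the replicates, and for the same reason no replicate could be left out. With the SE multiplied by 3 the calls of aod-1, arg-15, cfp, cry, nca-3, nit-4, phy-2, tre-1 and un-24 were lost. As deposited those of nit-4 and phy-2 were lost, and nrc-1 and pre-1 were called higher. The tables give no read numbers behind a level, and 989 genes had an SE over 0.25, so that changes of 2-fold could be missed in them.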
